A study of Homo sapiens with 12 samples.

Results

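The NRF2 oxidative stress genes described here are 9 genes that were taken by symbol from the 19447 symbols of a gene count table. They are NFE2L2 and KEAP1, which encode the transcription factor NRF2 and its inhibitor, and NQO1, HMOX1, GCLC, GCLM, TXNRD1, SRXN1 and OSGIN1, which are known NRF2 targets. All 9 symbols were in the table, 8 of them passed the filter on low counts in every comparison, and HMOX1 did not. Polyadenylated RNA was sequenced in 12 libraries, 3 in each of 4 groups, to profile the response of imatinib-sensitive and imatinib-resistant leukemia cells to lycorine, an alkaloid of the Amaryllis family. K562 is an established human chronic myeloid leukemia line that carries the BCR-ABL fusion kinase, the target of imatinib (IM), and the K562 group was left without drug as the control. The K562+L group is the same line with 6 µM lycorine. K562/IM is a single line that the study derived from K562 by raising imatinib stepwise and then kept in 5 µM, and the control group K562/IM received no lycorine. The fourth group is labelled K562/IM with lycorine, given at 6 µM per the study's methods. The sample titles number that group G2 while the study's pictures number it G6, so it is called here the labelled K562/IM+L libraries. The time of lycorine exposure before sequencing, and whether imatinib was still present at harvest, are not given in the sources used here. Nothing states that the libraries of a group came from separate cultures. The p-values below set differences between groups against the variation among these libraries, which may be technical. They may therefore not extend to new cultures.

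NRF2 is held at a low level in unstressed cells because KEAP1 presents it to a CUL3 ubiquitin ligase for destruction. Oxidants and electrophiles modify cysteines of KEAP1, NRF2 then accumulates, pairs with a small MAF protein and activates genes that carry an antioxidant response element, while BACH1 and BACH2 compete for the same elements as repressors. The targets make glutathione, reduce thioredoxin, peroxiredoxins and quinones, and break down haem. Much of this control acts on the NRF2 protein, which was not measured in the files, so the values below are transcript levels only. In a bulk library, fewer cells that make a transcript and less of it per cell cannot be told apart.

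The letters that NRF2 and its relatives are known to bind were looked for in the 250 bases upstream of the start sites of the members, because the members are known NRF2 targets or part of its own control. RefSeq (GRCh38.p14) gave 11 start sites for 8 members. The motif TGACNNNGC, a core of the antioxidant response element, was found on either strand at 4 of the 11 member starts, in 3 of 8 members, and at 10.9% of 35116 start sites of all genes. The related motif TGANTCAGC, which was added after the sequences had been seen and shares some matches with the first, was found at 1 of the 11, that of OSGIN1, and at 1.11% of all. The windows below hold each match with 10 bases on each side, read along the strand of the motif, with the motif in capitals.
GCLM, chr1:93909446-93909474, plus strand: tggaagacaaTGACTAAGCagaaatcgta
KEAP1 second start, chr19:10502807-10502835, minus strand: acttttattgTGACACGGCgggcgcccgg
KEAP1 second start, chr19:10502784-10502812, plus strand: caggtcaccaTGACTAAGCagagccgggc
OSGIN1, chr16:83953131-83953159, minus strand: ttcataagcgTGAGTCAGCaggggcccgt
TXNRD1 first start, chr12:104215670-104215698, plus strand: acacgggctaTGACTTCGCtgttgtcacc
TXNRD1 second start, chr12:104286920-104286948, minus strand: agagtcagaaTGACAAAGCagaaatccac
Along the gene, the motifs began 31 to 102 bases upstream of their start sites, and the KEAP1 windows overlap each other. The windows at the second starts of KEAP1 and TXNRD1 and that of OSGIN1 lie inside the span of the GENCODE gene model, which begins further upstream. OSGIN1 had the largest ratio of highest to lowest group mean of the 8 tested members, and the stretch around its motif is shown at more length, on the plus strand of the gene, chr16:83953090-83953209, with the motif of the minus strand read here in reverse complement and in capitals.
OSGIN1 upstream stretch: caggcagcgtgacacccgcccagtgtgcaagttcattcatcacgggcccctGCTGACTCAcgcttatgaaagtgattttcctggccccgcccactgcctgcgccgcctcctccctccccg
A match of these letters is a description and was not tested as a binding site, and the absence of a match elsewhere says only that these letters are not in that window. Counts per symbol do not separate the start sites of TXNRD1 or of KEAP1.

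Total counts ran from 75093844 to 107344598 per library. Levels are given as CPM, the counts scaled to the size of each library with TMM factors over the 12 libraries. Differences are log2 fold changes with their standard error (SE) and an adjusted p, by the quasi-likelihood test of edgeR and the Benjamini-Hochberg method over all genes tested. The label K562 was checked against 14 erythroid and megakaryocytic genes that this line is known to express, and all 14 had a mean over 1 CPM in every group. Their summed level was 6376 to 8799 CPM in K562, 4327 to 4953 in K562+L and 3090 to 3333 in K562/IM, but 34059 to 47569 in the labelled K562/IM+L libraries, which stand apart from the other 9 in this respect. Most of that sum came from the fetal and embryonic globins, with means of 8516 CPM for HBG1, 16991 for HBG2 and 11126 for HBZ, and near-identical HBG1 and HBG2 may share reads. From K562/IM to the labelled libraries 13 of the 14 genes rose and 1 fell, where 33.2% of all genes rose and 33.6% fell. The 1 that fell was the megakaryocytic ITGA2B, from a mean of 186 CPM to 18 CPM. Its mean was 4.83 CPM in K562 and 3.06 CPM in K562+L, so K562/IM was the highest group. Of 13 defining genes of other lineages, 4, 4, 7 and 4 had a mean over 1 CPM in these groups, 3, 2, 2 and 2 were at 0, and their sums ran from 398 CPM in the labelled K562/IM+L libraries to 775 CPM in K562+L. The part of the erythroid genes in the results on the labelled group was not tested, and the comparisons of K562+L and of K562/IM with K562 do not use that group.

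Transcripts of 5 of the 8 tested members, NFE2L2, GCLC, GCLM, TXNRD1 and OSGIN1, rose in K562+L against K562 at an adjusted p under 0.05 and none fell, where 18.2% of 12927 genes rose, 19.0% fell and 37.3% were called in either direction. The count of 5 fell to 1 without K562 replicate 2 or K562+L replicate 2 or 3, and to 2 without K562 replicate 3 or K562+L replicate 1. OSGIN1 alone also passed a log2 fold change of 1, as 6.39% of all genes did. In K562/IM against K562, 4 of 8 fell (KEAP1, NQO1, GCLM and SRXN1) and none rose, where 27.1% of 13406 genes fell, 30.1% rose and 57.1% were called, and no member passed the fold threshold, as 19.1% of all genes did. The count of 4 fell to 2 under upper-quartile normalization and without K562 replicate 2 or any 1 K562/IM library. In the labelled K562/IM+L libraries against K562/IM, all 8 tested members were called, 6 lower and 2 (KEAP1 and GCLC) higher, where 66.8% of 13727 genes were called, 33.6% lower and 33.2% higher, and TXNRD1 and OSGIN1 passed the fold threshold, as 28.5% of all genes did. The same libraries against K562 had 7 of 8 called, 6 lower and GCLC higher, where 56.0% of 13307 genes were called, 27.8% lower and 28.2% higher, and NQO1, TXNRD1, SRXN1 and OSGIN1 passed the fold threshold, as 23.8% of all genes did. The libraries of the groups compared did not overlap for 6, 4, 8 and 7 of the 8 members in these comparisons in turn, beside 51.5%, 66.6%, 73.4% and 63.6% of all genes tested. The median log2 fold change of the 8 was 0.31, -0.15, -0.54 and -0.93 in these comparisons in turn, beside -0.00, 0.04, -0.01 and 0.02 for all genes tested. The K562 libraries serve as control in 3 of these comparisons and the K562/IM libraries enter 2, so the comparisons are not independent of each other.

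**Figure D1:**
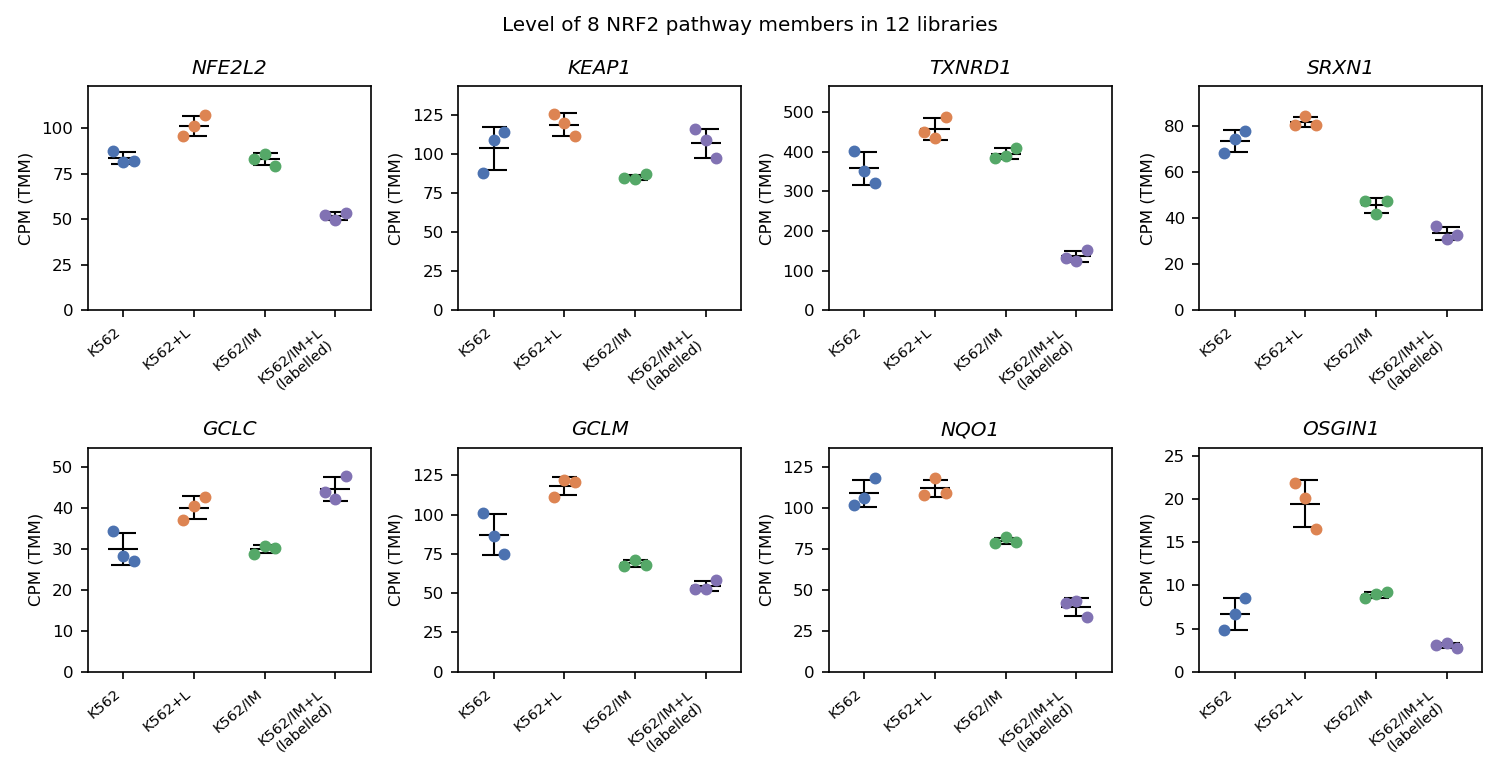
Level of the 8 tested members in CPM (y axis, linear, from 0) in the 4 groups (x axis), with a point for each library and black bars for the mean ± SD of 3 libraries. The labelled K562/IM+L libraries are the lowest group for NFE2L2, NQO1, GCLM, TXNRD1, SRXN1 and OSGIN1, and the K562+L libraries hold the highest group mean for every member shown except GCLC.

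NFE2L2 (chr2:177227595-177392697, minus strand, GENCODE release 29 on GRCh38) encodes NRF2 itself. Its level was 87.5, 81.2 and 81.8 CPM in K562 and 95.8, 101 and 107 CPM in K562+L. K562/IM held 82.8, 86.0 and 79.4 CPM, and the labelled K562/IM+L libraries held 52.2, 49.6 and 53.4 CPM. K562 and K562/IM overlapped, every K562+L library lay above them, and every labelled library lay below them. The rise in K562+L was 0.28 on the log2 scale (SE 0.0846, adjusted p = 0.0343). That call was lost under upper-quartile normalization (0.23, adjusted p = 0.0586) and without any 1 of the libraries other than K562 replicate 1, with log2 fold changes of 0.24 to 0.32 and adjusted p of 0.0558 to 0.140. K562/IM differed from K562 by -0.01 (SE 0.0710, adjusted p = 0.886). In the labelled libraries NFE2L2 fell by 0.65 against K562/IM (SE 0.0678, adjusted p = 1.1e-04) and by 0.71 against K562 (SE 0.0777, adjusted p = 2.7e-04). The gene model shares 54 exon bases, 0.903% of its length, with AGPS on the opposite strand, and whether counting used strand is not stated.

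KEAP1 (chr19:10486120-10503741, minus strand) encodes the sensor that marks NRF2 for destruction. It stood at 88.1, 109 and 114 CPM in K562 and at 126, 120 and 112 CPM in K562+L. It was at 84.7, 83.9 and 87.2 CPM in K562/IM and at 116, 109 and 97.5 CPM in the labelled K562/IM+L libraries. The K562/IM libraries were the lowest of all, and the other groups overlapped each other. KEAP1 did not pass the test in K562+L (log2 fold change 0.20, SE 0.115, adjusted p = 0.204) or in the labelled libraries against K562 (0.03, SE 0.126, adjusted p = 0.851). It fell by 0.28 in K562/IM (SE 0.103, adjusted p = 0.0457), a call that was lost under upper-quartile normalization (-0.24, adjusted p = 0.0876), without the low-count filter, and without any 1 library other than K562 replicate 1 (-0.30 to -0.22, adjusted p = 0.0989 to 0.145). It rose by 0.36 from K562/IM to the labelled libraries (SE 0.0781, adjusted p = 0.00465), in the direction opposite to NFE2L2.

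The number of NFE2L2 counts per KEAP1 count, which does not depend on library scaling, was compared with these levels already known. It averaged 0.818 ± 0.153 (SD, n = 3) in K562, 0.853 ± 0.0993 in K562+L, 0.971 ± 0.0571 in K562/IM and 0.485 ± 0.0548 in the labelled K562/IM+L libraries. The labelled libraries held 0.450, 0.456 and 0.548, below each of the other 9. A two-sided exact permutation test gave p = 0.100 for the labelled libraries against either K562/IM or K562, the smallest p that 3 against 3 can give, 0.700 for K562+L against K562 and 0.300 for K562/IM against K562. Against K562/IM that result was fixed in advance, since NFE2L2 was lower and KEAP1 higher there, each without overlap.

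TXNRD1 (chr12:104215779-104350305, plus strand) encodes cytosolic thioredoxin reductase, which uses NADPH to keep thioredoxin reduced. It was the most abundant member per kilobase of merged exons, at 53.4 CPM per kb in K562. Its level was 402, 352 and 320 CPM in K562 and 450, 434 and 487 CPM in K562+L. K562/IM held 384, 390 and 410 CPM, and the labelled K562/IM+L libraries held 132, 124 and 152 CPM. The labelled libraries lay below every other library, whereas K562 and K562/IM overlapped. TXNRD1 rose by 0.35 in K562+L (SE 0.101, adjusted p = 0.0282), a call that was lost without any 1 library other than K562 replicate 1 (0.27 to 0.39, adjusted p = 0.0502 to 0.100). The difference of K562/IM from K562 was 0.14 (SE 0.0923, adjusted p = 0.226) and passed only without K562 replicate 1 (0.20, adjusted p = 0.0267). TXNRD1 fell by 1.51 from K562/IM to the labelled libraries (SE 0.0933, adjusted p = 9.0e-06) and was lower than in K562 by a log2 fold change of -1.42 (SE 0.119, adjusted p = 8.2e-05).

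SRXN1 (chr20:646615-653370, minus strand) encodes sulfiredoxin, which restores peroxiredoxins after over-oxidation. Its level was 68.3, 74.1 and 77.6 CPM in K562 and 80.5, 84.1 and 80.3 CPM in K562+L. It was 47.4, 41.8 and 47.3 CPM in K562/IM and 36.4, 31 and 32.4 CPM in the labelled K562/IM+L libraries. The groups did not overlap in this order, yet the step from K562 to K562+L did not pass the test (log2 fold change 0.15, SE 0.0850, adjusted p = 0.189). SRXN1 fell by 0.69 in K562/IM against K562 (SE 0.0858, adjusted p = 3.6e-04). It fell by a further 0.42 in the labelled libraries against K562/IM (SE 0.0913, adjusted p = 0.00443), to a log2 fold change of -1.16 against K562 (SE 0.0984, adjusted p = 8.5e-05).

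GCLC and GCLM encode the catalytic and the modifier subunit of glutamate-cysteine ligase, the rate-limiting enzyme of glutathione synthesis. GCLC (chr6:53497341-53616970, minus strand) was at 34.3, 28.2 and 27.1 CPM in K562 and at 37.0, 40.5 and 42.5 CPM in K562+L. It was at 28.7, 30.7 and 30.2 CPM in K562/IM and at 43.9, 42.0 and 47.7 CPM in the labelled K562/IM+L libraries. The K562+L libraries and the labelled K562/IM+L libraries lay above both control groups, and overlapped each other. GCLC rose by 0.42 in K562+L (SE 0.115, adjusted p = 0.0234) and by 0.60 in the labelled libraries against K562/IM (SE 0.0783, adjusted p = 3.6e-04). The first call was lost without K562 replicate 2 or 3 or K562+L replicate 2 or 3 (0.36 to 0.41, adjusted p = 0.0601 to 0.0944). GCLC was also higher in the labelled libraries than in K562, by 0.56 (SE 0.116, adjusted p = 0.00534), and its difference of K562/IM from K562 was 0.00 (SE 0.105, adjusted p = 0.995).

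GCLM (chr1:93885205-93909456, minus strand) was at 101, 86.1 and 74.6 CPM in K562 and at 111, 122 and 121 CPM in K562+L. It was at 67.4, 71.4 and 68.1 CPM in K562/IM and at 52.9, 52.6 and 58.3 CPM in the labelled K562/IM+L libraries. The groups did not overlap, with K562+L highest and the labelled libraries lowest. GCLM rose by 0.44 in K562+L (SE 0.119, adjusted p = 0.0235), which did not pass without K562 replicate 2 or without any 1 K562+L library (0.41 to 0.48, adjusted p = 0.0540 to 0.0831). It fell by 0.34 in K562/IM (SE 0.112, adjusted p = 0.0321), which did not pass under upper-quartile normalization (-0.29, adjusted p = 0.0511), without K562 replicate 2 or without any 1 K562/IM library (-0.37 to -0.32, adjusted p = 0.0684 to 0.103). In the labelled libraries it fell by 0.31 against K562/IM (SE 0.0721, adjusted p = 0.00640) and by 0.70 against K562 (SE 0.122, adjusted p = 0.00240).

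The subunit transcripts thus moved up together in K562+L and in opposite directions in the labelled libraries. GCLM counts per GCLC count were 2.94, 3.06 and 2.76 in K562 and 3.01, 3.01 and 2.85 in K562+L. They were 2.34, 2.33 and 2.26 in K562/IM and 1.21, 1.25 and 1.22 in the labelled K562/IM+L libraries. The ratio overlapped between K562 and K562+L (exact permutation p = 0.700) and stepped down without overlap to K562/IM and then to the labelled libraries. Each of those steps had p = 0.100, the smallest an exact two-sided test of 3 against 3 can give. For the step from K562/IM to the labelled libraries that result was fixed in advance, since GCLM was lower and GCLC higher there, each without overlap.

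**Figure D2:**
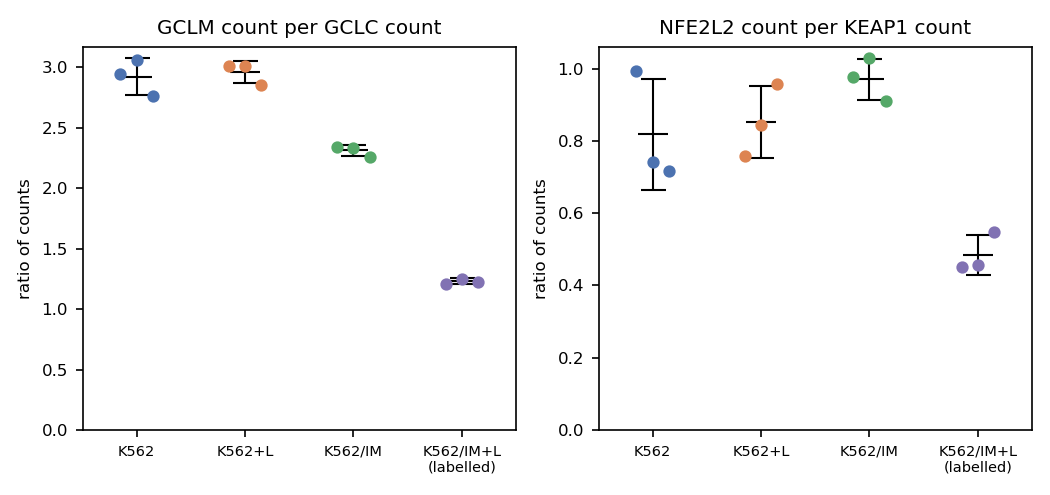
Ratio of counts within a library (y axis, linear, from 0) for GCLM per GCLC and for NFE2L2 per KEAP1 in the 4 groups (x axis), with a point for each library and bars for the mean ± SD of 3 libraries. GCLM per GCLC is near 3 in K562 and K562+L and between 1.21 and 1.25 in the labelled K562/IM+L libraries, which are also the lowest for NFE2L2 per KEAP1.

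NQO1 (chr16:69706996-69726951, minus strand) encodes the quinone reductase that is often read as the standard NRF2 target. Its level was 102, 106 and 118 CPM in K562 and 108, 118 and 109 CPM in K562+L. K562/IM held 78.3, 82.0 and 79.1 CPM, and the labelled K562/IM+L libraries held 42.1, 42.9 and 33.2 CPM. K562 and K562+L overlapped, K562/IM lay below both, and the labelled libraries lay lower still. The difference of K562+L from K562 was 0.04 on the log2 scale (SE 0.0903, adjusted p = 0.786), without a call at any alternative setting. NQO1 fell by 0.45 in K562/IM (SE 0.0781, adjusted p = 0.00190). In the labelled libraries it fell by 0.99 against K562/IM (SE 0.103, adjusted p = 1.1e-04) and by 1.48 against K562 (SE 0.130, adjusted p = 9.6e-05).

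HMOX1 (chr22:35380361-35394214, plus strand) encodes haem oxygenase 1, the inducible enzyme of haem breakdown and a main target of BACH1. It had 0 counts in 10 libraries and 4 counts in each of K562+L replicates 2 and 3. If 1 count stood for 1 read, a count of 0 would allow up to 3 counts, or 0.0280 to 0.0419 CPM in these libraries, and this limit covers counting error only. Low counts gathered at and just above multiples of 4, as described below, so the limit may be higher. HMOX1 was thus not detected in 10 libraries, did not pass the filter and was not tested. Other symbols of the pathway lists were also at or near 0, namely PTGR1 at 0 counts in every library and the widely expressed peroxidase GPX1 at 5 to 41 counts. Whether reads of such symbols, HMOX1 included, were lost in the counting was not tested. Its neighbours on chromosome 22, which were chosen after the values had been seen, were counted in every library, at 1376 to 2686 counts for TOM1 and 11537 to 23654 counts for MCM5. HMOX2, which encodes the constitutive haem oxygenase, had mean levels of 62.4 CPM in K562, 62.3 in K562+L, 43.4 in K562/IM and 33.7 in the labelled K562/IM+L libraries.

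OSGIN1 (chr16:83948282-83966332, plus strand) encodes an oxidative stress-induced growth inhibitor and had the lowest level per kilobase of the 8 tested members, at 1.94 CPM per kb in K562. Its level was 4.89, 6.69 and 8.58 CPM in K562 and 21.9, 20.2 and 16.5 CPM in K562+L. K562/IM held 8.50, 9.05 and 9.21 CPM, and the labelled K562/IM+L libraries held 3.15, 3.29 and 2.77 CPM. The K562+L libraries lay above all others and the labelled libraries below all others, while K562 and K562/IM overlapped. OSGIN1 rose by 1.54 in K562+L (SE 0.208, adjusted p = 0.00162) and kept that call in all 13 alternative fits, at 1.34 to 1.75. The difference of K562/IM from K562 was 0.41 (SE 0.195, adjusted p = 0.108) and passed only without K562 replicate 3 (0.61, adjusted p = 0.0146). OSGIN1 fell by 1.51 in the labelled libraries against K562/IM (SE 0.124, adjusted p = 3.5e-05) and by 1.15 against K562 (SE 0.228, adjusted p = 0.00431).

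Whether lycorine moved the members differently in the lines was then tested as an interaction over the 12 libraries, with K562/IM as labelled minus K562. It was below 0 for 6 of the 8 members at an adjusted p under 0.05 and above 0 for none, where 31.7% of 13995 genes were called below 0, 29.9% above 0 and 61.7% in either direction. OSGIN1 had the largest difference, -3.07 on the log2 scale (SE 0.260, adjusted p = 1.4e-06), since it rose in one line and fell in the other. TXNRD1 followed with -1.88 (SE 0.137, adjusted p = 4.1e-07), then NQO1 with -1.05 (SE 0.138, adjusted p = 4.6e-05), NFE2L2 with -0.95 (SE 0.0941, adjusted p = 4.8e-06), GCLM with -0.77 (SE 0.139, adjusted p = 5.0e-04) and SRXN1 with -0.60 (SE 0.116, adjusted p = 7.9e-04). KEAP1 (0.14, SE 0.141, adjusted p = 0.423) and GCLC (0.16, SE 0.138, adjusted p = 0.348) did not pass.

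**Figure D3:**
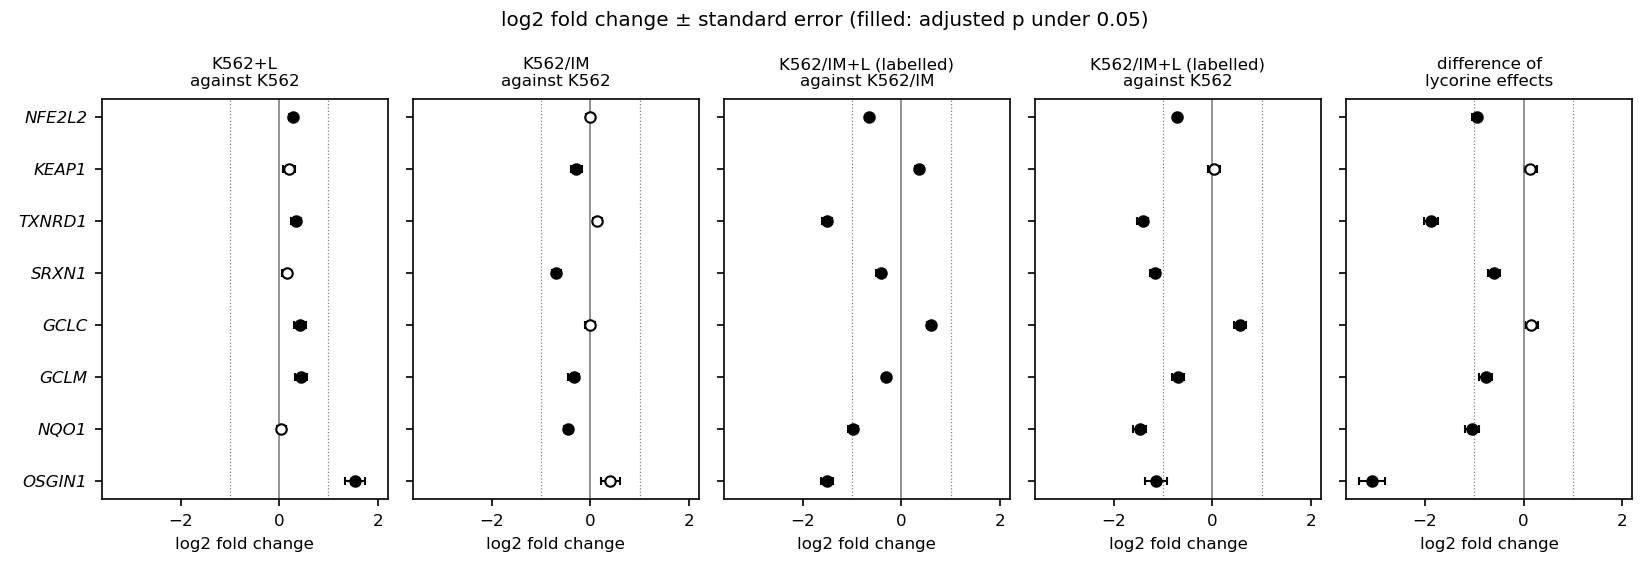
Log2 fold change of the 8 tested members (rows) in the 4 comparisons and in the difference of the lycorine effects (panels), with bars for ± 1 SE, filled points for an adjusted p under 0.05 and dotted lines at a log2 fold change of 1 in either direction. All points lie above 0 for K562+L (NQO1 at 0.04, or -0.01 under upper-quartile normalization), and 6 of 8 lie below 0 in each panel with the labelled K562/IM+L libraries, GCLC being called higher in both of the pairwise panels.

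Read across groups, the members fell into several orders of level. The highest group mean was 1.40 times the lowest for KEAP1, 1.49 times for GCLC, 1.96 times for NFE2L2, 2.16 times for GCLM, 2.45 times for SRXN1, 2.83 times for NQO1, 3.36 times for TXNRD1 and 6.36 times for OSGIN1. Per kilobase of merged exons, the mean levels in K562 were 33.4 CPM per kb for NQO1, 27.6 for KEAP1, 27.2 for SRXN1, 16.1 for GCLM, 14 for NFE2L2 and 3.45 for GCLC. In the labelled K562/IM+L libraries, KEAP1 was the most abundant of the members at 28.6 CPM per kb, above TXNRD1 at 20.3, whereas TXNRD1 led in the other groups. Within K562, replicate 1 was the highest library for NFE2L2, GCLC, GCLM and TXNRD1, and replicate 3 for KEAP1, NQO1, SRXN1 and OSGIN1.

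As a description, the genes whose centred log2 CPM lay nearest to a member over the 12 libraries, by root mean square difference, were listed for NFE2L2, KEAP1 and NQO1. Only genes whose SD of log2 CPM over the libraries was at least 0.8 times that of the member were considered. For NFE2L2 they were ZNF783 (0.0641), RBM25 (0.0685) and RAB10 (0.0688). For KEAP1 they were SMARCB1 (0.0508), VPS4A (0.0654) and SPRYD3 (0.0669). For NQO1 they were HNRNPAB (0.0851), UTP11 (0.0939) and CISD1 (0.0978). None of these is one of the other members, but the rule on SD kept KEAP1 out of the lists for NFE2L2 and NQO1, and NFE2L2 out of that for NQO1. The 12 libraries share their groups and scaling.

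The other genes of the pathway were described by 7 lists of 81 genes, all in the table. In K562+L against K562, 74 of the 81 were tested, and 39 fell and 8 rose, where 19.0% of all genes fell and 18.2% rose. The median log2 fold change of the lists was -0.41 beside -0.00 for all genes, whereas the calls among the members were all rises. Genes that make, recycle or use glutathione fell in 12 of 16 cases and rose in 1, SLC3A2, from a mean of 290 CPM to 564 CPM. SLC7A11, the cystine transporter that feeds glutathione synthesis and a known NRF2 target, had a log2 fold change of -1.62 (SE 0.219, adjusted p = 0.00162). Its level was 80.6, 58.2 and 46.4 CPM in K562, a mean of 61.7 CPM, and 19.2, 16.6 and 24.3 CPM in K562+L. GGT1, which breaks down extracellular glutathione, fell by 1.35 and the microsomal transferase MGST2 by 1.01. Of the thioredoxin, peroxiredoxin and sestrin genes, 11 of 14 fell, among them the thioredoxin inhibitor TXNIP (-1.20, adjusted p = 0.0136). TXNIP was at 248 CPM in K562 replicate 1 against 129 and 115 CPM in the other K562 libraries, its log2 fold change was -0.78 without that library, and its call was lost without K562+L replicate 1. Of the tested detoxification genes, 7 of 12 fell and none rose, with NQO2, a relative of NQO1, at -1.23 and the conjugate exporter ABCC3 at -3.14. NADPH-producing enzymes fell in 4 of 6 cases, with IDH1 at -1.76 (SE 0.0943, adjusted p = 4.8e-05). The haem and iron list had 3 falls and 1 rise of 8, and the superoxide dismutases and catalase 1 fall of 3.

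The regulators were the list with more rises than falls in K562+L, 6 against 1 of 15. That list mixes partners of NRF2, such as the small MAF genes, with genes that act against it, such as CUL3, BACH1 and BACH2. Its count of rises therefore has no single meaning for NRF2 activity. SQSTM1, the autophagy receptor p62 that binds KEAP1 and is itself an NRF2 target, was at 120, 134 and 144 CPM in K562 and 313, 320 and 298 CPM in K562+L. It rose by 1.23 (SE 0.0922, adjusted p = 1.7e-04), without overlap. BACH2 rose by 2.16 from a mean of 0.312 CPM to 1.40 CPM, and BACH1, the repressor of HMOX1, had a log2 fold change of 0.22 that did not pass (SE 0.137, adjusted p = 0.233). BACH1 passed without K562 replicate 1 (0.36, adjusted p = 0.0316).

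In K562/IM against K562, 75 of the 81 were tested, and 36 fell and 15 rose, where 27.1% of all genes fell and 30.1% rose. The median was -0.25 beside 0.04 for all genes. Of the glutathione genes 9 of 16 fell and 1 rose, of the thioredoxin list 6 of 14 fell and 3 rose, of detoxification 6 of 13 fell and 3 rose, of haem and iron 4 of 8 fell and 1 rose, and of the NADPH enzymes 4 of 6 fell and 1 rose. The thioredoxin list included falls of PRDX1 by 1.02 and PRDX4 by 1.01, both peroxiredoxins. SESN3, a sestrin, rose by 6.68 from 0.522 CPM to 54.1 CPM. AKR1C3, an aldo-keto reductase and known NRF2 target, fell by 3.86 (SE 0.130, adjusted p = 8.2e-07), while AKR1B1 had a log2 fold change of 2.78 (SE 0.840, adjusted p = 0.0229) at low counts, 0, 8 and 18 in K562 and 49, 71 and 99 in K562/IM. That call was lost without K562 replicate 2 or K562/IM replicate 2 or 3, with an adjusted p of up to 0.0888 and log2 fold changes of 2.16 to 3.91 over the fits that left out 1 library. BLVRB, which reduces biliverdin, fell by 1.01, and glutathione genes included GSTM3 at 2.17 and GGT1 at -1.83. Of the 15 regulators 6 rose and 5 fell. The NRF2 relative NFE2L3 rose by 1.72 and BACH2 by 3.18, SQSTM1 rose by 0.34 (SE 0.0848, adjusted p = 0.00969), and SLC7A11 fell by 0.86 (SE 0.184, adjusted p = 0.00486).

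From K562/IM to the labelled K562/IM+L libraries, 74 of the 81 were tested, and 31 rose and 22 fell, 71.6% called in all, a share near that of all genes, of which 33.2% rose, 33.6% fell and 66.8% were called. The median was 0.24 beside -0.01 for all genes. Of the glutathione genes 8 of 16 rose and 4 fell, of the thioredoxin list 5 of 14 rose and 2 fell, of detoxification 5 of 12 rose and 5 fell, and of the regulators 5 of 15 rose and 6 fell. The haem and iron list had 3 rises of 8, all past a log2 fold change of 1, and 2 falls. The rises were BLVRB at 2.89, the porphyrin transporter ABCB6 at 2.49 and the ferritin heavy chain FTH1 at 1.46. Catalase (CAT) rose by 1.45, PRDX2 by 1.37, PRDX5 by 1.5 and MGST3 by 1.38. The summed level of the 14 erythroid and megakaryocytic genes was 3090 to 3333 CPM in K562/IM and 34059 to 47569 CPM in these libraries, and its part in these rises was not tested. AKR1C3 rose by 4.37 (SE 0.113, adjusted p = 2.9e-07), from 2.54, 2.2 and 2.14 CPM to 49.3, 47.8 and 42.5 CPM, and ABCC3 and GGT1 rose by 2.54 and 1.66. In the same comparison SESN3 fell by 3.65, BACH2 by 2.70, NQO2 by 1.72 and MGST1 by 1.02. SQSTM1 rose by 0.54 (SE 0.0821, adjusted p = 7.7e-04), whereas BACH1 (0.08, adjusted p = 0.644) and SLC7A11 (0.15, adjusted p = 0.471) did not pass.

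Against K562, the same labelled libraries had 27 of 74 tested pathway genes higher and 19 lower, 62.2% called in all, a share near that of all genes, of which 28.2% were higher, 27.8% lower and 56.0% called. The median was 0.15 beside 0.02 for all genes. Lower with the members were NQO2 by a log2 fold change of -2.08, MGST1 by -1.96, the small MAF partner MAFF by -1.33 and the carbonyl reductase CBR1 by -1.30. Higher were SESN3 by 2.99, ABCC3 by 1.96, BLVRB by 1.84, GSTM3 by 1.67, ABCB6 by 1.62, PRDX5 by 1.19 and MGST3 by 1.17. In this comparison the scaling matters for all genes. Upper-quartile normalization moved the median log2 fold change of all genes from 0.02 to 0.17, and the split of calls from 3753 higher and 3693 lower (50.4% higher) to 61.3% higher, or with the fold threshold from 62.5% to 73.0% higher. Relative to that shift the 6 lower members stayed lower and GCLC stayed higher, each at an adjusted p under 0.05 in all 13 alternative fits.

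**Figure D4:**
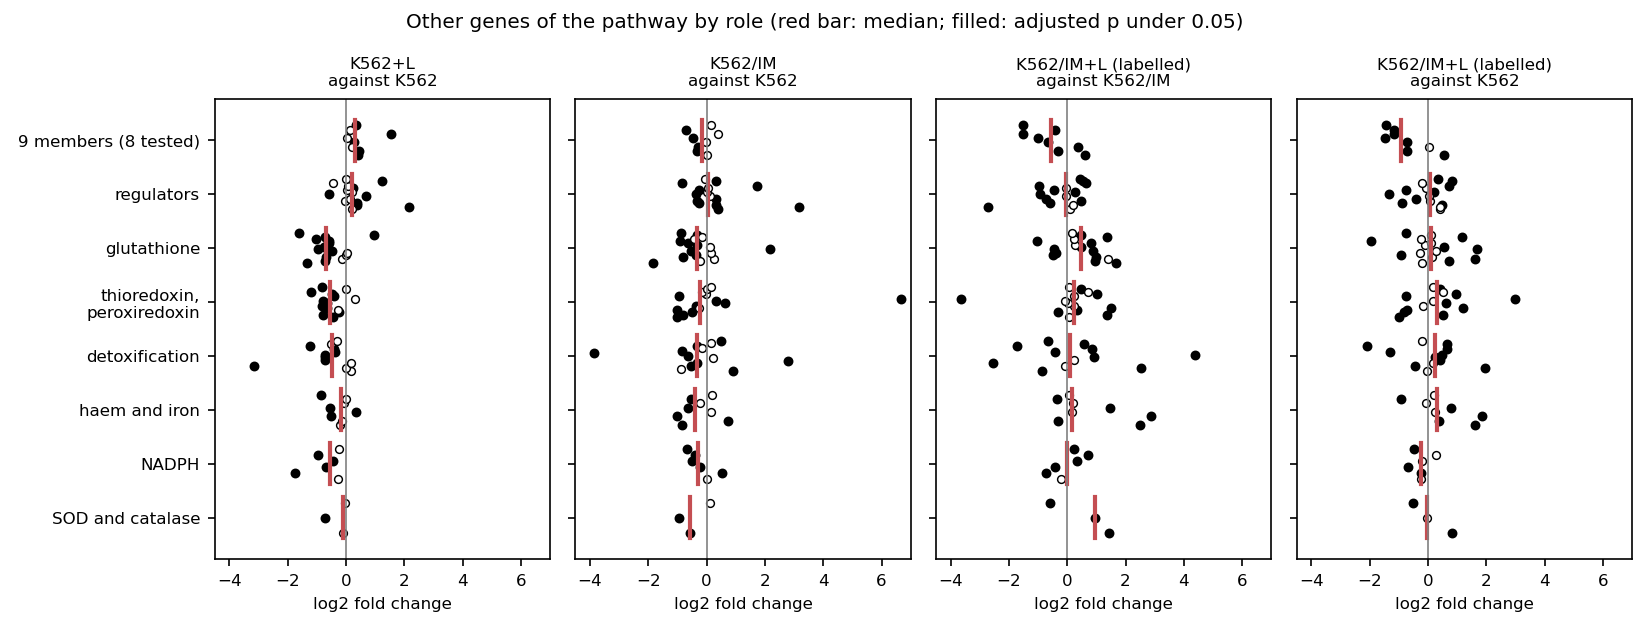
Log2 fold change (x axis) of each tested gene of the 9 members and of the 7 other pathway lists (rows) in the 4 comparisons (panels), with filled points for an adjusted p under 0.05, open points for the rest and a red bar for the median of each list. In K562+L the members lie to the right of 0 while the medians of the glutathione, thioredoxin, detoxification and NADPH lists lie to the left, and in the labelled K562/IM+L libraries the member median lies to the left.

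In the interaction, 42 of 75 tested genes of the other lists were called above 0 and 16 below, where 29.9% and 31.7% of all genes were. The median was 0.49 beside -0.02 for all genes. The regulators had 8 of 15 below 0, the thioredoxin list 12 of 14 above 0 and the glutathione list 10 of 16 above 0. SLC7A11 had a difference of 1.75 (SE 0.312, adjusted p = 4.5e-04) and SQSTM1 of -0.71 (SE 0.121, adjusted p = 3.5e-04).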

How the data were processed

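The table of counts deposited by the authors holds whole numbers per gene symbol and library, not normalized, and all of its 12 columns were used. The submitters' processing notes name FastQC, STAR, StringTie, DESeq2 and the build hg38, without versions or roles, and the annotation and strand setting are not given in the sources used here. Multiples of 4, and the numbers 1 higher, made up 67.9% of the 23289 counts from 1 to 25, although they are 52.0% of whole numbers there, so counting noise may exceed what the totals give. Libraries were grouped by their treatment labels.

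In each comparison edgeR 4.0.16 in R 4.3.3 was run on the 6 libraries of the 2 groups. Its filterByExpr function (minimum count 10), TMM factors, glmQLFit and glmQLFTest were used in turn, and p-values were adjusted by Benjamini-Hochberg over all genes tested. The interaction used all 12 libraries. Calls were made at an adjusted p under 0.05, with or without an absolute log2 fold change over 1. The SE is the log2 fold change divided by the square root of F. Ratios were compared by two-sided exact permutation tests. Alternatives were DESeq2 1.42.0, upper-quartile and RLE normalization, no filter, all 12 libraries in one fit, the replicate number as a block, counts divided by 4, and each library left out.

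All 9 members are described, and of each other list up to 3 genes per comparison are named, those with the smallest p past both thresholds whose libraries do not overlap, with SQSTM1, BACH1 and SLC7A11 allowed anywhere. HMOX2, TOM1, MCM5, PTGR1, GPX1, SLC3A2 and the single marker genes were added after the values had been seen. The members, lists and tests were chosen with earlier results of these data known. Positions and exon lengths came from GENCODE release 29, which matched 19029 of 19447 symbols. Counts were also simulated for each comparison, with the same dispersion for every gene and planted differences only in well-counted genes. In these, 100 of 100 genes planted at a log2 fold change of 1 were recovered, with 6 to 12 false calls among 12861 to 13688 genes. This checks the running of the test only and does not cover smaller differences or genes that vary more between libraries. No group had more than 3 libraries, so outlying libraries were not tested for.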

Additional observations from a re-analysis of the deposited data

Results flagged for a closer look

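For 6 of the 8 tested members the lycorine effect differed between the lines by the interaction test over 12 libraries, taking the fourth group as labelled. Of 13995 genes, 61.7% were called in the same test, 31.7% below 0 and 29.9% above 0. The differences, K562/IM as labelled minus K562 on the log2 scale, were -0.95 for NFE2L2, -1.05 for NQO1, -0.77 for GCLM, -1.88 for TXNRD1, -0.60 for SRXN1 and -3.07 for OSGIN1, and each passed in all 18 alternative fits. NFE2L2, GCLM, TXNRD1 and OSGIN1 were called higher in K562+L and lower in the labelled K562/IM+L libraries, whereas NQO1 and SRXN1 were called in the labelled libraries against K562/IM and not in K562+L. Of the 14 erythroid and megakaryocytic genes, 9 fell and none rose in K562+L, where 19.0% of all genes fell and 18.2% rose. In the labelled libraries against K562/IM, 13 rose and ITGA2B fell, where 33.2% of all genes rose and 33.6% fell. Most of the sum of the 14 in the labelled libraries was in HBG1, HBG2 and HBZ. The identity of the labelled group, its erythroid genes and the lycorine response of K562/IM cannot be told apart in these libraries.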

How the results depend on the processing

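Of 560 values of members under alternative settings, 509 kept their direction and their side of the threshold, 36 lost the call, 2 gained it and 13 changed sign, and dividing the counts by 4 or fitting all 12 libraries together changed none. Member calls at an adjusted p under 0.05 in the comparisons with the labelled K562/IM+L libraries and in the interaction held in every alternative. Those past the fold threshold did not all hold. Leaving out 1 library, 2 to 3 members passed both thresholds against K562/IM and 3 to 4 against K562, where OSGIN1 was at -0.94 without K562 replicate 3. The calls in K562+L other than OSGIN1 did not: NFE2L2 passed in 6 of 13 alternatives, TXNRD1 in 7, GCLC in 8 and GCLM in 8. With the replicate number as a block, K562+L had 3126 called genes (4821 without it), 1 member higher (5 without it) and 4 other pathway genes higher (8 without it), and the adjusted p was 0.137 for NFE2L2, 0.0678 for GCLC, 0.0614 for GCLM and 0.0709 for TXNRD1, and in K562/IM 0.0617 for KEAP1. The labels do not say whether same-numbered samples were handled together. Same-numbered libraries correlated at -0.227 to 0.0805 in their deviations from the group means, which with 3 libraries a group cannot settle it. Leaving out each library, K562+L had 2871 to 5823 called genes, 1 to 5 members higher and 4 to 8 other pathway genes higher, and K562/IM had 2 to 4 members lower and 0 to 1 higher. Under upper-quartile normalization 2 members were lower in K562/IM. Values near 0 changed sign without a call. These were NQO1 in K562+L (-0.01 under upper-quartile normalization, -0.02 to 0.10 without 1 library), GCLC in K562/IM (-0.02 under DESeq2 and under RLE, -0.07 to 0.08 without 1 library), NFE2L2 in K562/IM (0.03 under upper-quartile normalization, -0.04 to 0.02 without 1 library), KEAP1 in the labelled libraries against K562 (-0.08 to 0.10 without 1 library), and BACH1 and SLC7A11 in the labelled libraries against K562/IM (-0.09 each without labelled replicate 3, and at most 0.20 and 0.28 without another). Upper-quartile levels that moved by over 1 SD were 54.8 CPM for NFE2L2 and 57.8 CPM for GCLM in the labelled libraries and 78.2 CPM for SRXN1 in K562+L. The causes of these shifts were not tested. With 3 libraries a group, exact tests of the ratios cannot reach a p under 0.100, and HMOX1 is limited by its counts.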
